A study of Homo sapiens with 22 samples.

Results

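The regions described here are places in the genome where the D538G form of estrogen receptor alpha (ESR1) had a chromatin immunoprecipitation (ChIP-seq) peak with estradiol (E2) and none without it. Peaks of 20 libraries on chromosomes 1 to 22 and X were merged into 93599 regions wherever they overlapped by at least 1 bp. A region was kept when at least 2 of the 6 D538G E2 peak lists, and none of the 6 D538G DMSO lists, held a peak in it. This left 3101 regions, called estradiol-only regions below. The D538G lists themselves chose them, so their presence and strength in those lists are descriptions without a test. Of 44916 regions with peaks in at least 2 of the 12 D538G lists, the rule took 6.9%. The mirror rule, at least 2 DMSO lists and no E2 list, took 2620 regions or 5.83%, called DMSO-only regions. A further 21030 regions met the E2 condition but had a peak in 1 or more D538G DMSO lists and serve as the other D538G E2 regions.

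All libraries came from clonal derivatives of Ishikawa, an endometrial adenocarcinoma line, in which ESR1 carried a FLAG tag and was precipitated through it. The WT ESR1 group comprised clones 1 and 2 and the D538G ESR1 group clones 1, 2 and 3, each clone with 2 replicates per treatment. Every clone had been kept in hormone-deprived medium for 5 days or more before it received 10 nM E2 or 0.1% DMSO for 1 h. There were thus 4 wild-type E2, 4 wild-type DMSO, 6 D538G E2 and 6 D538G DMSO libraries, beside 2 inputs that were not used here. Each line is 1 clone, and the labels do not say whether the 2 replicates of a clone were separate cultures. The p-values below measure the spread between these libraries, which may be technical.

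ESR1 is a nuclear receptor that binds DNA mainly as a dimer once estradiol occupies its ligand-binding domain, and it then recruits coactivators to enhancers that often lie far from gene starts. D538G lies in the last helix of that domain and is known, from breast and endometrial cancers, to favour the active shape of the receptor without hormone. Estradiol can still bind such a receptor, and the regions below are those where its peaks were listed with hormone alone.

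The number of regions in a list limited what could be seen in it. The D538G E2 lists covered between 1876 and 43949 regions and the D538G DMSO lists between 1516 and 48576. Of the wild-type lists, 2 DMSO lists covered only 39 and 42 regions. Read depth is unknown, so the absence of a peak can mean few reads as well as no binding. Some libraries stood apart from their labels or groups. All peaks of the D538G clone 2 replicate 1 E2 list carry a name with the letters Ctl, as do the replicate 1 DMSO lists of all 5 clones and no other E2 list. The D538G clone 3 replicate 2 pair stood apart in length. Its E2 list was the longest of the 6. Of its regions 63.9% also lay in the D538G clone 2 replicate 2 DMSO list. In the E2 list of the other replicate of clone 3 lay 23.2%. These 2 lists had 48576 and 18951 regions, which bears on the shares. Of their own regions, 57.8% and 53.9% lay in the clone 3 replicate 2 E2 list. The DMSO list of the pair was the shortest D538G list, with 1516 regions. Of these, 97.0% lay in the clone 3 replicate 1 E2 list. Other D538G lists held 94.5% (clone 1 replicate 1 E2), 89.7% (clone 3 replicate 1 DMSO) and 64.0% (clone 2 replicate 2 DMSO) of them. The labels were kept as given. The number of regions, their presence in wild type and their chromosomes are also given without these lists, and the other descriptions rest on all 12 D538G lists.

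Most estradiol-only regions came from the same pair of lists. The clone 3 replicate 1 E2 list held a peak in 2841 of the 3101 regions (91.6%) and the clone 1 replicate 1 E2 list in 2803 (90.4%). The clone 1 replicate 2 list held 1075 (34.7%) and the clone 2 replicate 1 list 839 (27.1%). The clone 3 replicate 2 list held 210 (6.77%) and the clone 2 replicate 2 list 41 (1.32%). Length did not order these shares: the clone 3 replicate 2 list was the longest of the 6, with 43949 regions, and only 0.478% of them were estradiol-only. In the clone 1 replicate 1 list of 12082 regions the share was 23.2%, and in the clone 3 replicate 1 list of 18951 regions 14.99%.

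**Figure D1:**
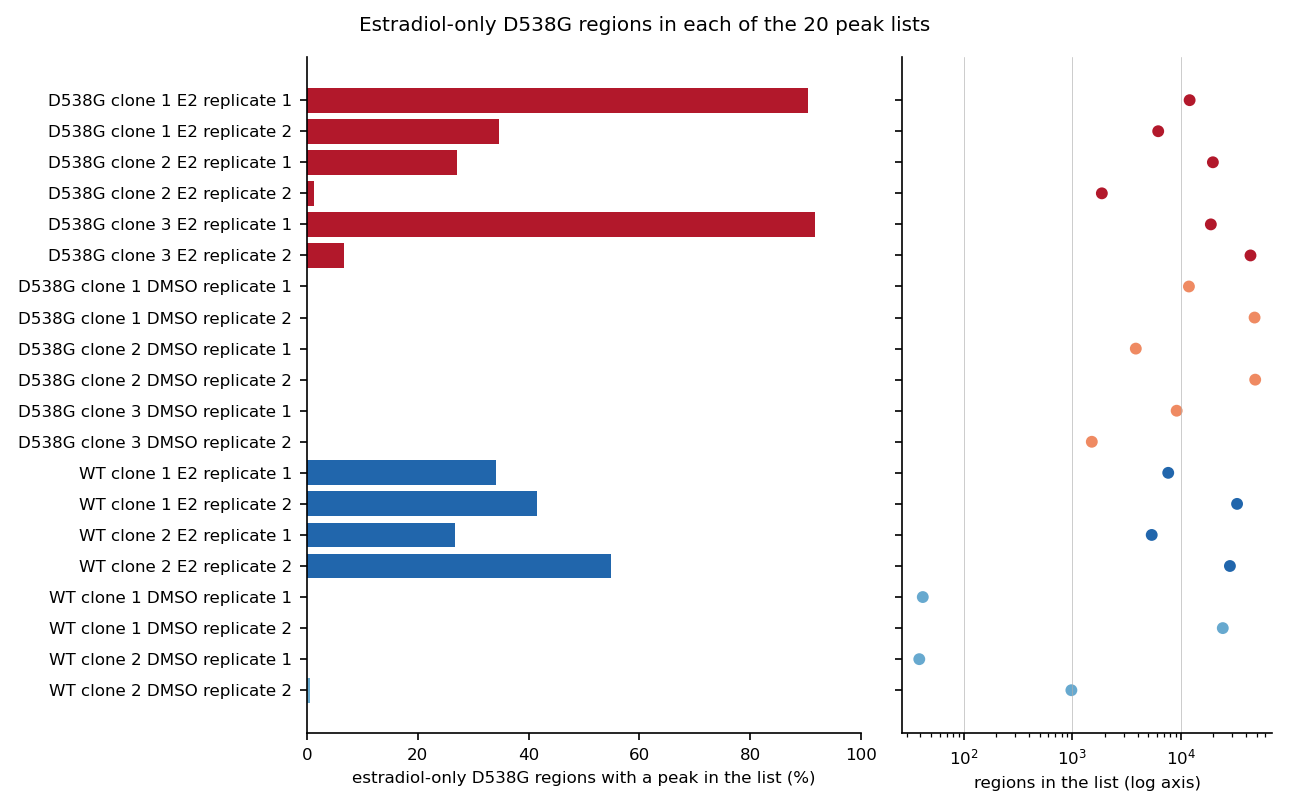
Left, percent of the 3101 estradiol-only D538G regions with a peak in each of the 20 lists; right, the number of regions in that list on a log axis; colours mark genotype and treatment. The D538G bars follow from the rule, and the rule also barred most regions of the wild-type DMSO lists: the 4 wild-type E2 lists lie between 26.7% and 54.9% and the 4 wild-type DMSO lists at or below 0.548%.

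By clone of origin, 2858 regions had a peak in clone 1, 868 in clone 2 and 2860 in clone 3. Clones 1 and 3 without clone 2 accounted for 1922 regions (62.0%), all 3 clones for 695 (22.4%), and a single clone for 311 (10.0%). The commonest combination was clone 1 replicate 1 with clone 3 replicate 1 and no other E2 list, with 1434 regions (46.2%). Adding clone 1 replicate 2 gave 430 regions, and adding both that list and clone 2 replicate 1 gave 386. Both replicates of clone 1 shared 1020 of the regions, both replicates of clone 3 shared 191 and both of clone 2 shared 12. Replicate number also divided them, since 1807 regions (58.3%) had peaks in replicate 1 lists only and 1 region had peaks in replicate 2 lists only. Of the 839 regions in the list with Ctl names, 115 needed it to reach 2 lists, and 2986 regions met the rule without it. Without the clone 3 replicate 2 pair 2948 regions met it.

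**Figure D2:**
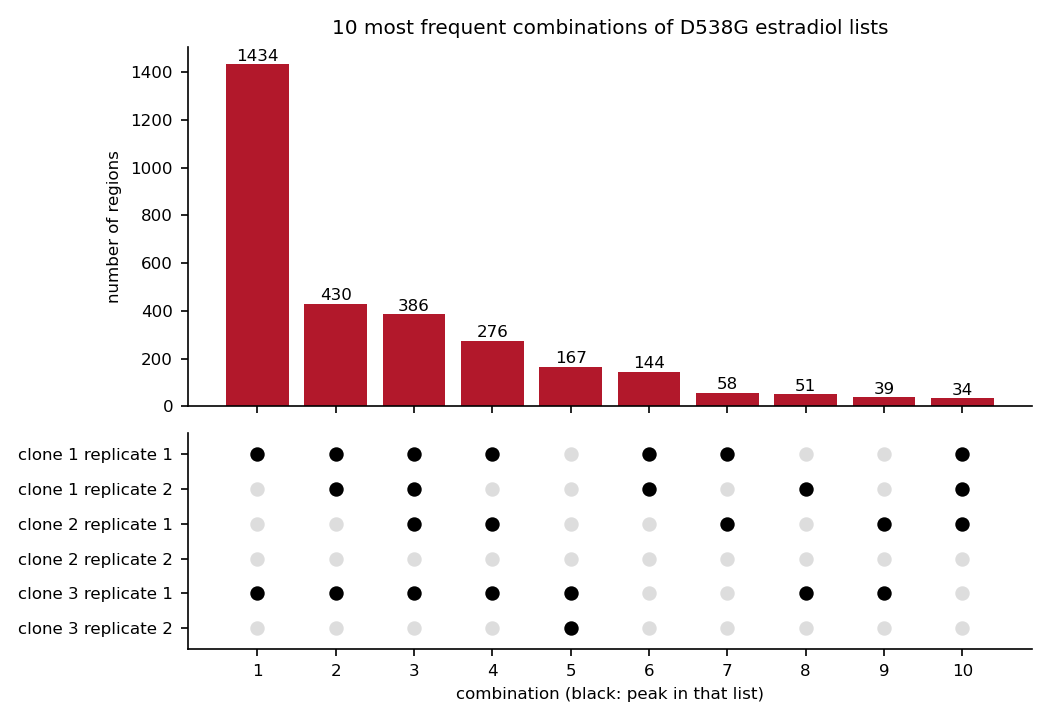
Number of estradiol-only regions (bars) for the 10 most frequent combinations of D538G E2 lists, with black dots for the lists that held a peak. The first bar, 1434 regions, is the pair of replicate 1 lists of clones 1 and 3; clone 2 replicate 2 appears in none of the 10.

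No estradiol-only region had a peak in all 6 E2 lists. Peaks in 2 lists were found for 1915 regions, in 3 lists for 772, in 4 lists for 407 and in 5 lists for 7. Just outside the rule lay 13221 regions with a peak in 1 E2 list and no DMSO list, and 3260 with peaks in at least 2 E2 lists and in 1 DMSO list. A single library made most of the second group: the clone 1 replicate 2 DMSO list alone kept out 2735 regions, with peaks at a median percentile of 59.3 within it, and without this list 5836 regions would have met the rule. The clone 2 replicate 2 DMSO list was as long, with 48576 regions, and alone kept out 103. Leaving out the clone 1 replicate 1 E2 list reduced the number to 1464, and leaving out the clone 3 replicate 1 E2 list reduced it to 1408. The strongest region outside on the E2 side was chr19:8043202-8043774, at percentile 93.5 in the clone 3 replicate 2 E2 list alone. On the DMSO side it was chr5:55818606-55819439, whose peaks stood at percentiles 92.7, 93.4 and 95.9 in 3 E2 lists and at 15.8 in the clone 1 replicate 2 DMSO list.

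Whether the pattern held in a clone that had no part in the choice was read by choosing regions from 2 clones and looking at the third, an analysis added after the data were seen. With clone 3 set aside, 1441 regions had at least 2 of 4 E2 lists and no DMSO list. In clone 3 they had peaks in 82.4% under E2 and 3.05% under DMSO in replicate 1, and in 0.278% and 2.64% in replicate 2. The remaining regions with at least 2 of those 4 E2 lists had peaks in 98.0%, 73.0%, 76.8% and 20.3% of the same lists. In clone 3 E2 exceeded DMSO in replicate 1 and not in replicate 2, the pair that stood apart. The choice bore on these shares, since it left out every region with a DMSO peak in the other clones. In replicate 1, 97.1% of the clone 3 DMSO list and 69.4% of its E2 list lay in the clone 1 replicate 2 DMSO list. In replicate 2 it was 91.8% and 59.2%. The low DMSO shares therefore do not stand apart from the choice, and the values are descriptions.

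With clone 2 set aside, 3319 regions were chosen, and clone 2 had peaks in 27.9% (E2, the list with Ctl names) and 8.74% (DMSO) in replicate 1, and in 3.37% and 1.54% in replicate 2. The remaining regions had 74.5% and 27.9% in replicate 1 and 13.8% and 61.2% in replicate 2, so E2 exceeded DMSO in replicate 1 there as well. With clone 1 set aside, 3116 regions were chosen, and clone 1 had peaks in 46.2% and 9.34% in replicate 1 but in 23.4% (E2) and 69.3% (DMSO) in replicate 2. The remaining regions had 35.3% and 58.0% in replicate 1 and 23.6% and 96.8% in replicate 2. The mean E2-minus-DMSO difference was −4.51 percentage points in clone 1, 10.5 in clone 2 and 38.5 in clone 3. Their mean was 14.8 ± 21.8 (SD, n = 3 clones; exact sign-flip test, two-sided, p = 0.5). The smallest p possible with 3 clones is 0.25, and the choice limited the DMSO shares. This test therefore cannot decide whether the pattern held.

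Peaks of estradiol-only regions ranked in the weaker part of most lists. Rank is given as the percentile of the authors' signal value within a list, with 100 the strongest. In the clone 1 replicate 1 E2 list the regions had a median percentile of 40.6, against 60.5 for the other D538G E2 regions, and a median deposited −log10 p of 36.5 against 52.3. In the clone 3 replicate 1 list the medians were 43.0 and 63.7, in the clone 1 replicate 2 list 30.1 and 58.5, in the clone 2 replicate 1 list 40.2 and 55.8, and in the clone 2 replicate 2 list 22.4 and 53.7. The clone 3 replicate 2 list differed in level, with 68.9 and 79.4, and its 210 estradiol-only regions had the highest median percentile of the 6. Few regions reached the top: 15 of 2803 lay above percentile 90 in the clone 1 replicate 1 list and 11 of 2841 in the clone 3 replicate 1 list, where the best of them ranked 468 and 400. In the clone 3 replicate 2 list it was 16 of 210 (7.62%). The regions were weak relative to others, but their median −log10 p lay above the lowest deposited value of 10.0. It ranged from 21.0 in the clone 2 replicate 2 list to 41.7 in the clone 3 replicate 1 list. With all lists, DMSO lists included, held to a −log10 p of at least 20 and regions chosen anew, 2831 met the rule.

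The order of strength within the set was shared to differing extents. Across the 2562 regions with peaks in both replicate 1 lists of clones 1 and 3, the percentiles correlated with Pearson's r of 0.459. Across the 1020 regions in both replicates of clone 1 it was 0.457. It was lower for the other pairs of D538G lists that were read, at 0.313 over the 191 regions in both replicates of clone 3. For 3 further pairs it lay between 0.222 and 0.279. Over the 725 regions in the replicate 1 lists of clones 2 and 3 it was 0.121. Pairs that shared few of the regions were not read. The points are regions, which share their libraries and are not replicates.

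**Figure D3:**
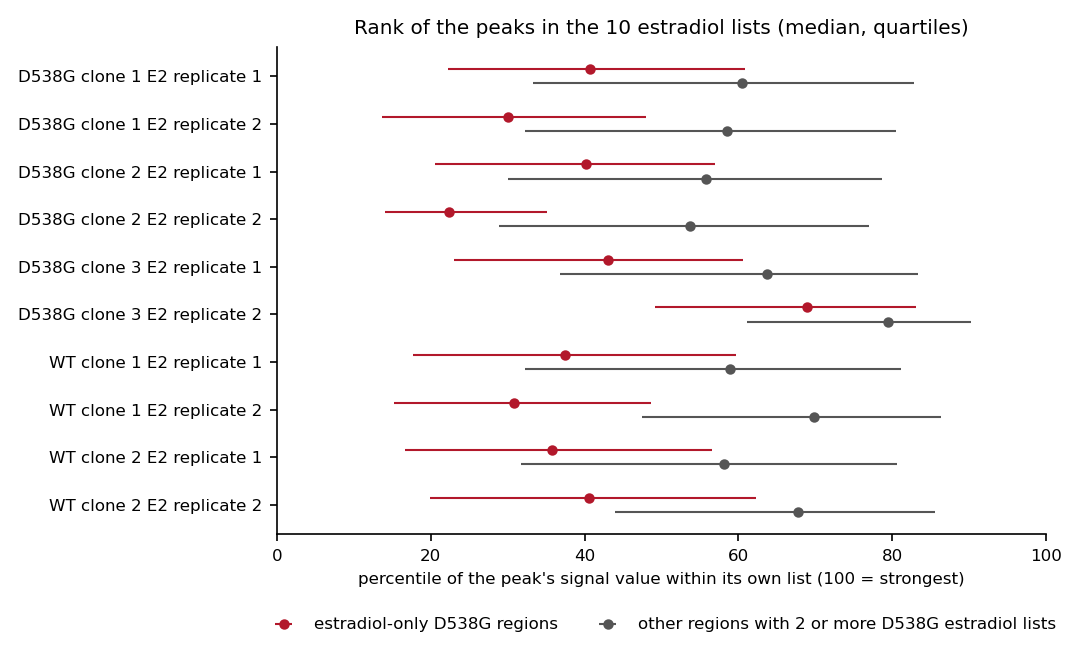
Percentile of the peak's signal value within its own list, as median and quartiles, for estradiol-only regions (red) and other D538G E2 regions (grey) in the 6 D538G and 4 wild-type E2 lists. The red median is lower than the grey one in each of the 10 lists; in the wild-type lists it lies between 30.8 and 40.6.

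The wild-type lists did not choose the regions, and many of the regions had peaks there with E2. Wild-type clone 1 had peaks in 34.1% of them in E2 replicate 1 and in 41.5% in E2 replicate 2, and clone 2 in 26.7% and 54.9%, with a mean of 39.3 ± 12.01% (SD, n = 4). The DMSO lists of clone 1 had peaks in 0% and 0.0645% and those of clone 2 in 0% and 0.548%, with a mean of 0.153 ± 0.265% (SD, n = 4). The E2 share was the higher in 4 of 4 pairs, by 39.1 percentage points on average. This difference was 39.4 without the D538G list with Ctl names, 41.7 without that list and its DMSO partner, and 39.96 without the D538G clone 3 replicate 2 pair. Among replicate 1 libraries alone it came to 30.4, and among replicate 2 libraries alone to 47.9.

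The low DMSO shares do not stand apart from the rule, which left out every region with a D538G DMSO peak. All 42 regions of the wild-type clone 1 DMSO replicate 1 list and all 39 of the clone 2 DMSO replicate 1 list had such a peak, so neither list could hold an estradiol-only region. The same held for 96.0% of the 24414 regions of the clone 1 DMSO replicate 2 list and for 97.5% of the 983 of the clone 2 DMSO replicate 2 list. Among wild-type E2 lists 76.6% and 87.9% (clone 1) and 77.7% and 85.4% (clone 2) of regions were barred in this way. No p-value is therefore given here for the difference between wild-type E2 and DMSO lists.

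Of the regions that were not barred, the 4 wild-type E2 lists had 1795, 3989, 1206 and 4138, in the order clone 1 replicates 1 and 2 and clone 2 replicates 1 and 2. Estradiol-only regions made up 58.9%, 32.3%, 68.7% and 41.1% of these. The clone 2 DMSO replicate 2 list had 25 such regions, of which 17 were estradiol-only, a share like those of the E2 lists. The clone 1 DMSO replicate 2 list had 971, of which 2 were. The 2 DMSO lists that could be read thus went in different directions.

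As a share of whole lists, estradiol-only regions made up 13.8% and 3.90% of the clone 1 E2 lists and 15.3% and 5.99% of the clone 2 E2 lists, replicate 1 before replicate 2. The mean of 9.74 ± 5.65% (SD, n = 4) compares with 0.434 ± 0.863% (SD, n = 4) for the DMSO lists, which the rule limits as above. The mean difference was 9.31 percentage points, and 9.05 without the list with Ctl names.

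The E2 lists can also be read against the DMSO-only regions, which the mirror rule kept clear of D538G E2 peaks. Estradiol-only regions exceeded DMSO-only regions by 33.9 and −3.62 percentage points in the clone 1 E2 lists and by 26.6 and 23.9 in the clone 2 E2 lists. The long clone 1 E2 replicate 2 list, with 33060 regions, thus held a slightly larger share of the DMSO-only regions. In the DMSO lists the excess was 0 and −50.8 in clone 1 and 0 and 0.510 in clone 2. The rules of both sets bear on these values, and they are given here without a test.

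**Figure D4:**
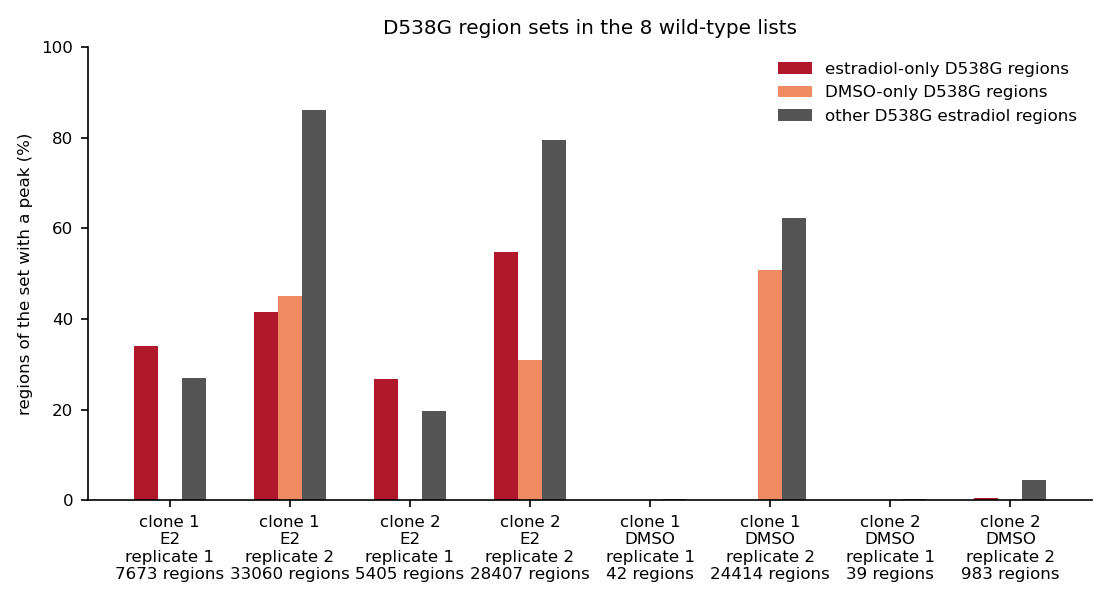
Percent of the estradiol-only (red), DMSO-only (orange) and other D538G E2 regions (grey) with a peak in each of the 8 wild-type lists, with the list's number of regions under its name. The long clone 1 DMSO replicate 2 list holds 50.9% of the orange and 62.3% of the grey set and 0.0645% of the red set.

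Region by region, 1916 of the 3101 (61.8%) had a peak in at least 1 wild-type E2 list, against 88.5% of the other D538G E2 regions and 47.2% of the DMSO-only regions. Without the list with Ctl names it was 62.1% of 2986 regions, and without the D538G clone 3 replicate 2 pair 62.4% of 2948. A peak was found in 1 wild-type E2 list for 519 regions, in 2 for 443, in 3 for 347 and in all 4 for 607. Only 19 regions had a wild-type DMSO peak, and each of these also had a wild-type E2 peak. The other 1185 (38.2%) had no wild-type peak at all, against 36.4% of the DMSO-only regions and 10.6% of the other D538G E2 regions. Of all 93599 regions, 38.9% had a wild-type E2 peak and 56.3% had no wild-type peak.

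In wild type itself, presence was compared between 4 E2 and 4 DMSO lists by Fisher's exact test over the 29229 regions with at least 2 wild-type peaks. Of these, 0% passed an adjusted p of 0.05, and 9.34% passed 0.05 unadjusted with more E2 lists. Among the estradiol-only regions 1397 could be tested, 593 passed unadjusted, all with peaks in 4 E2 and 0 DMSO lists, and 0 passed after adjustment (smallest adjusted p = 0.306, Fisher's exact test with Benjamini-Hochberg adjustment). With 4 lists against 4, no region could pass adjustment unless far more than 9.34% of the regions separated fully. That 0 passed therefore says nothing about single regions. Since the rule bars most regions with wild-type DMSO peaks, the count of 593 is a description and no evidence of an E2 effect in wild type. The rule used in D538G, at least 2 E2 lists and no DMSO list, was also applied to the wild-type lists. It was met there by 31.7% of the 29229 regions. Of all 3101 estradiol-only regions, 1378 (44.4%) met it, against 21.0% of the other D538G E2 regions and 5.95% of the DMSO-only regions. The shares of these sets count all their regions, among them the 1704 estradiol-only regions with fewer than 2 wild-type peaks. The 31.7% leaves such regions out, and beside it stand 1378 of the 1397 that could be tested. The bar on D538G DMSO peaks applies to the estradiol-only regions alone. The other D538G E2 regions and the DMSO-only regions were chosen to have such peaks. A wild-type DMSO peak lay in 62.7% and 50.9% of them, against 0.613% of the estradiol-only regions. The rules thus set these shares apart, and they are descriptions.

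Regions seen in more D538G E2 lists were more often seen in wild type. A wild-type E2 peak was present in 52.8% of the regions with 2 D538G lists, 69.8% of those with 3, 88.0% of those with 4 and 7 of the 7 with 5. All 4 wild-type E2 lists held a peak in 12.4%, 25.4%, 42.0% and 28.6% of the same groups. Presence in all 3 D538G clones went with a wild-type E2 peak in 83.5% of 695 regions, and presence in 1 clone with one in 47.6% of 311. With and without a peak in the list with Ctl names the shares were 79.0% and 55.4%.

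Strength ran in the same order in some D538G lists and not in others. In the D538G clone 1 replicate 1 list the median percentile was 32.0 for regions without any wild-type peak, 40.4, 40.2 and 48.1 for those with 1, 2 and 3 wild-type E2 lists, and 57.5 for those with all 4. In the clone 3 replicate 1 list the corresponding medians were 37.0, 38.8, 43.2, 47.9 and 58.9. The range was narrower in the clone 1 replicate 2 list, from 26.3 without a wild-type peak to 34.7 with 3 wild-type E2 lists, and in the clone 2 replicate 1 list, from 34.3 to 45.7 with all 4. In the clone 3 replicate 2 list there was no such order, with medians of 66.8, 61.1, 73.2, 76.1 and 58.9. The clone 2 replicate 2 list, with 41 regions, had none either, at 19.9, 33.1, 18.3, 31.5 and 22.4. Within the wild-type E2 lists the regions ranked lower than the other D538G E2 regions in 4 of 4 lists, at median percentiles of 37.4 against 58.9 and 30.8 against 69.9 in clone 1 and of 35.7 against 58.1 and 40.6 against 67.8 in clone 2.

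The estradiol-only regions were spread over the chromosomes differently from the other sets, which is described here without a test. Chromosomes 16, 17, 19, 20 and 22, most of which are known as gene-rich, together held 6.32% of them, against 22.2% of the other D538G E2 regions, 28.6% of the DMSO-only regions and 25.3% of all regions. Chromosomes 4, 5, 13, 18 and X, most of which are known as gene-poor, held 24.9% of them against 13.4%, 9.47% and 12.6%. Both lists of chromosomes were drawn up after the values were seen. Chromosome 19, the most gene-dense, held 18 regions (0.580%) where it held 5.18% of the other D538G E2 regions and 9.20% of the DMSO-only regions. Chromosome 4 held 287 (9.26%) against 4.02% and 2.21%, and chromosome X 74 (2.39%) against 0.813% and 1.68%.

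The lists that held most of the regions had themselves fewer peaks on the gene-rich chromosomes, with 15.2% in clone 1 replicate 1 and 17.4% in clone 3 replicate 1, than the longest D538G lists, with 28.6% in each of clone 3 replicate 2 E2 and clone 2 replicate 2 DMSO. The 1434 regions of the commonest combination had 5.72% there and the 167 regions in the clone 3 pair of E2 lists alone 20.4%. The value depended on the lists used. It was 11.9% without the clone 1 replicate 2 DMSO list and 13.0% among regions chosen from replicate 1 lists alone. Among the 142 regions chosen anew when each list was held to its 1000 strongest peaks, it was 15.5%. It was 6.20% without the list with Ctl names and 5.50% without the clone 3 replicate 2 pair. The part of list composition in the difference was not tested.

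**Figure D5:**
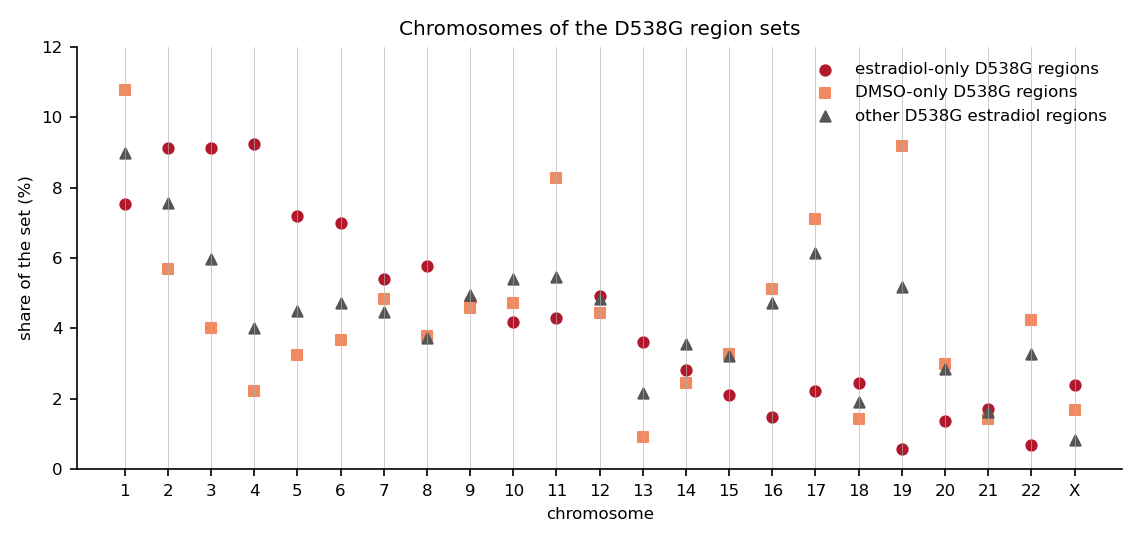
Share of the estradiol-only (red circles), DMSO-only (orange squares) and other D538G E2 regions (grey triangles) on each chromosome. Among others, red lies above both other sets on chromosomes 3 to 6, 13 and X and below them on chromosomes 16, 17, 19, 20 and 22.

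The regions also stood apart along the chromosome. The gap to the nearest region with a D538G DMSO peak had a median of 19.8 kb (quartiles 4.38 and 67.2 kb), against 2.58 kb for the other D538G E2 regions. A DMSO peak lay within 1 kb of 10.2% of them and within 10 kb of 37.5%, against 36.7% and 69.4%. DMSO-only regions lay a median of 2.62 kb from the nearest region with a D538G E2 peak. Among themselves the estradiol-only regions had a median gap of 115 kb to the nearest other one, against 98.2 kb among the DMSO-only regions. Their median width was 441 bp (range 205 to 1577), against 898 bp for the other D538G E2 regions, which merge peaks of more lists. Within single lists the difference was smaller, with median peak widths of 361 and 435 bp in clone 1 replicate 1 and of 360 and 477 bp in clone 3 replicate 1.

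Among the most widely shared estradiol-only regions were 6 with peaks in 5 D538G E2 lists, taken in order of mean percentile from the 7 of this kind. Coordinates are those of the lists, 1-based, on hg19. They lay at chr4:163571932-163572414, chr2:205219875-205220407, chr1:77409607-77410302, chr4:58757966-58758519, chr2:214933368-214933958 and chr9:98026730-98027379. All 6 lacked a peak in the clone 3 replicate 2 E2 list, although it was the longest. The first had −log10 p values of 141 and 49.2 in the clone 1 E2 lists, 146 and 56.3 in the clone 2 E2 lists and 71.3 in clone 3 replicate 1, at percentiles between 68.0 and 94.1. In wild type it had peaks in 3 of 4 E2 lists, at percentiles 46.0, 59.8 and 85.9, and in no DMSO list.

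The region at chr4:58757966-58758519 showed the clones apart. Its signal stood at percentiles 86.4 and 77.2 in the clone 1 E2 lists, at 66.8 and 34.97 in the clone 2 E2 lists and at 17.4 in clone 3 replicate 1. In wild type it had 1 peak, at percentile 10.2 in clone 2 E2 replicate 2. The region at chr2:205219875-205220407 and that at chr9:98026730-98027379 had peaks in all 4 wild-type E2 lists, at mean percentiles of 47.6 and 40.1.

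Of the regions without any wild-type peak, the 3 with most D538G E2 lists lay at chr7:40921528-40922255, chr13:49800542-49801340 and chr14:61066402-61066912, each with peaks in both clone 1 lists and in replicate 1 of clones 2 and 3. The first was strong in D538G, with −log10 p values of 193 and 119 in clone 1, 38.7 in clone 2 and 187 in clone 3, at percentiles of 90.1, 87.8, 59.0 and 84.6. It lacked a peak in wild-type E2 lists of 28407 and 33060 regions. Without the list with Ctl names each of the 3 still had 3 E2 lists.

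The opposite case was strong in wild type and middling in D538G. The region at chr7:29588329-29589074 had peaks at percentiles 99.5, 91.4, 99.7 and 96.7 in the 4 wild-type E2 lists. In D538G it had percentiles of 53.6 in clone 1 replicate 1, 55.2 in clone 2 replicate 1 and 76.6 in clone 3 replicate 1, and no peak in the replicate 2 lists. The regions at chr5:167723619-167724275 and chr9:2469558-2470487 also had peaks in all 4 wild-type E2 lists, at mean percentiles of 94.0 and 92.5. In D538G they had peaks in both clone 1 lists and in clone 3 replicate 1, where they stood at percentiles 98.0 and 93.6.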

How the data were processed

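Each of the 20 libraries had 1 peak list in the narrowPeak layout, so peaks were called per sample. The submitters' processing notes name Bowtie, MACS2, DESeq2 and hg19 without roles, and a step for each is not given in the sources used here. The authors deposited for each peak a signal value, whose reference is not stated, a −log10 p, a −log10 q and a score, of which the last was not used. All peak names of 4 D538G replicate 1 lists contain Input, so the lists may not all have been called alike. Depth is unknown, so values served for ranks inside a list and for stricter thresholds.

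Of 356472 peaks, 356437 on chromosomes 1 to 22 and X were merged with Python 3.11.15, pandas 2.3.3 and scipy 1.17.1. The merge matched that of bedtools 2.31.1 and was tested on simulated data, as was the test per region. Members, lists and tests were chosen with earlier results of these data known. Exact permutation tests of wild-type E2 against DMSO libraries were run with Benjamini-Hochberg adjustment over 3 tests. Their p-values appear only in the closing section and are no support, because the rule had set most DMSO values near 0. E2 and DMSO lists of the same clone and replicate number are paired by clone, and their log10 numbers of regions deviated together in wild type (r = 0.921 over 4 pairs) and in opposite directions in D538G (r = −0.918 over 6 pairs). Named regions were the 6 with most D538G E2 lists, then the 3 such without a wild-type peak, then the 3 with most wild-type E2 lists and no wild-type DMSO list, with ties broken by mean percentile, and the strongest outside the rule on each side. Sequences, motifs, promoters and genes need a genome or annotation of hg19 and were not analysed here.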

Additional observations from a re-analysis of the deposited data

Results flagged for a closer look

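Each of 5 measures was searched for a list far from the rest of its group, in 15 combinations of measure and group, and 4 were found, all in wild-type DMSO lists. Chance would mark about 1 in 20 groups of normally distributed values. That rate does not apply here, since the rule fixed several wild-type DMSO values at 0 and the measures are related. The clone 2 DMSO replicate 2 list held 0.548% of the estradiol-only regions, and they made up 1.73% of it, above the other 3 lists in both. The clone 1 DMSO replicate 2 list held 50.9% of the DMSO-only regions, and its excess of estradiol-only over DMSO-only regions was −50.8 percentage points, far from the other 3 lists. The rule barred 96.0% and 97.5% of the regions of the clone 1 and clone 2 replicate 2 DMSO lists from being estradiol-only, and all regions of the replicate 1 DMSO lists.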

How the results depend on the processing

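Of 222 alternatives over 8 results, 181 changed neither a call nor a direction, nor moved a value by more than its spread or a count by more than 1.5 times. Among these is the count of regions passing Fisher's test after adjustment, which stayed at 0 and could hardly move. The 3101 regions became 1186 with at least 3 E2 lists required and 1215 with both replicates of a clone. Chosen anew from the 1000 strongest peaks of each list they were 142. From D538G lists held to the 1619 peaks of the shortest they were 222. Within replicate number 1 they were 5431 and within replicate number 2 146, chosen after seeing the data, as was leaving out the clone 2 replicate 1 pair, which gave 3281, or the clone 3 replicate 2 pair, which gave 2948. The share with a wild-type E2 peak became 76.2% with at least 3 lists, 35.2% with 1000 peaks, and 33.2% and 91.1% within replicates 1 and 2.

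The rule set most wild-type DMSO values, so the p-values of the wild-type differences are no support for them. Adjusted over 3, the exact permutation p was 0.0429, 0.0429 and 0.114 for the share of regions with a peak, the share of a list and the excess over DMSO-only regions (32.8). It was 0.0857 for the first and second without any 1 wild-type DMSO list. With the replicate block, the wild-type differences of 39.1 in the share of regions with a peak and of 9.31 in the share of a list each had an exact permutation p of 0.125, and the 593 regions passing unadjusted became 0, which 4 pairs make unavoidable. Within replicates 1 and 2, with regions chosen again, the differences were 26.0 and 84.2 for the first and 21.6 and 0.404 for the second. With the regions as chosen they were 30.4 and 47.9, and 14.5 and 4.07. Fewer libraries make the smallest p 0.333.

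Across fits that each left out 1 library, the number of regions ranged from 1408 to 5836, the share with a wild-type E2 peak from 49.4% to 71.7%, the first difference from 33.8 to 47.9, the second from 5.05 to 14.004, the third from 20.05 to 41.6 and the regions passing unadjusted from 370 to 820. The adjusted exact permutation p of the third difference was 0.0286 without the D538G clone 1 or clone 3 replicate 1 E2 list. It was the same without wild-type clone 1 E2 replicate 2. The rules of both sets bear on this difference, so these p-values are no support for it. The third difference was 20.05 without wild-type clone 1 DMSO replicate 2. The cause was not tested. Motif and promoter alternatives were not run.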
